A study of Mus musculus with 18 samples.

Results

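Transcripts of 10 genes of the Notch pathway were followed in bone marrow mesenchymal stem cells (MSCs) of young and old mice and in old MSCs kept beside young ones. The genes were the 4 receptors Notch1, Notch2, Notch3 and Notch4, the 3 ligands Jag1, Jag2 and Dll1, and the 3 target genes Hes1, Hey1 and Heyl. They were chosen by name, and 10 of the 27179 genes in the table matched, each in a single row. All 10 passed the filter on low values that was applied before testing, which asked for 10 or more normalized counts on average across the 18 libraries.

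Notch receptors sit in the cell membrane and are activated by ligands of the Jagged and Delta families on a neighbouring cell. Activation leads to cleavage of the receptor by ADAM proteases and then by γ-secretase, and the freed intracellular part enters the nucleus, binds RBPJ and switches on repressors of the HES and HEY families. In bone marrow stroma, Notch signalling is known for holding back osteoblast differentiation and for its part in the niche of blood-forming cells, while NOTCH3 and JAG1 are known from the mural cells of vessels.

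The 18 libraries comprised 6 from young MSCs, 6 from old MSCs and 6 from rejuvenated old MSCs, all from C57BL6 mice. Young cells came from animals of 6 weeks and old cells from animals of 18 to 24 months, and each library represented 100000 cells per well after 7 days. Rejuvenated old MSCs were old cells that had spent the 7 days in a shared well with young MSCs on the other side of a 0.4 µm Transwell membrane, which soluble factors can pass but which keeps the cell layers apart. No library of old cells kept with other old cells was used here, so the presence of further cells and their age cannot be told apart. The sample labels call the 6 libraries of each group biological replicates. Whether separate animals lay behind them was not given in the sources used here. The p-values thus set each difference against the spread between these libraries, which may be technical.

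The libraries held 22936251 to 29559194 reads on genes, the deepest 1.29 times the shallowest. The methods of the study describe the mice of both ages as male, and the Y-linked transcripts Ddx3y, Eif2s3y, Kdm5d and Uty went against this in the young libraries, where none exceeded 2.06 normalized counts. In the 12 other libraries Eif2s3y, for instance, lay between 1926 and 2355 normalized counts. Xist, which silences the inactive X chromosome in female cells, ran from 21.2 to 41.2 normalized counts in young libraries and from 1.97 to 14.4 in the others. Young libraries thus lacked Y-linked RNA and had little Xist, so that the sex and the origin of the young cells are in doubt. In every difference from young MSCs below, age and any such difference in origin cannot be told apart. Rejuvenated old replicate 1 stood apart from its group for Dlk1 (298 normalized counts, the other 5 at 19.3 to 25.5) and Thy1 (21.6, the others at 0 to 0.951). In young libraries Dlk1 was at 11489 to 12726 and Thy1 at 175 to 227, and results that rest on it are given without it as well.

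Stromal markers were present in all groups, led by Col1a2 in young and Cxcl12 in old and rejuvenated old MSCs, with Thy1 at the floor (at most 3 reads in every library) in old MSCs. The sum of the 12 stromal markers was 322363 to 348916 normalized counts in young, 444860 to 471001 in old and 435493 to 467784 in rejuvenated old libraries. All 12 differed between young and old MSCs, 5 higher and 7 lower in young. Cxcl12 (means of 9227 and 197374) and Eng were lower in young, and Pdgfra (14051 and 4075) and Nt5e higher. The gap in Cxcl12 alone was larger than that between the young and old sums, while Col1a2 was higher in young (171857 and 104079). As background for these marker counts, 85.7% of all genes tested passed, 41.6% higher and 44.1% lower in young. Markers of other cells also differed between young and old MSCs. The summed level of 12 macrophage markers was 925 to 1040 normalized counts in young, 15153 to 19175 in old and 15261 to 18667 in rejuvenated old libraries, and all 12 were lower in young than in old MSCs. Ptprc, Adgre1, Itgam, C1qa, C1qb and C1qc were at the floor in young MSCs. The sum of 12 pericyte and smooth muscle markers, mostly Acta2, was 48273 to 51262 in young, 117416 to 129858 in old and 124227 to 143773 in rejuvenated old libraries, with Higd1b at the floor in all groups and Kcnj8 also in young and old MSCs. Not all of these markers followed the sum, since 6 of the 9 tested were lower in young than in old MSCs and Cspg4, Mcam and Ndufa4l2 were higher, Cspg4 with means of 160 and 21.5 normalized counts. The endothelial sum was low and overlapped in all 3 groups, between 316 and 414, with Tie1, Sox17 and Cldn5 at the floor throughout. All 5 of its tested members differed between young and old MSCs, a share near the background, and they did so in both directions. Kdr (means of 85.7 and 9.12), Esam and Tek were higher in young MSCs, and Vwf (51.8 and 127) and Egfl7 were lower. In these bulk samples fewer cells of a type and less RNA per cell cannot be told apart, and the part of these lists in the differences of the Notch genes was not tested.

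**Figure D1:**
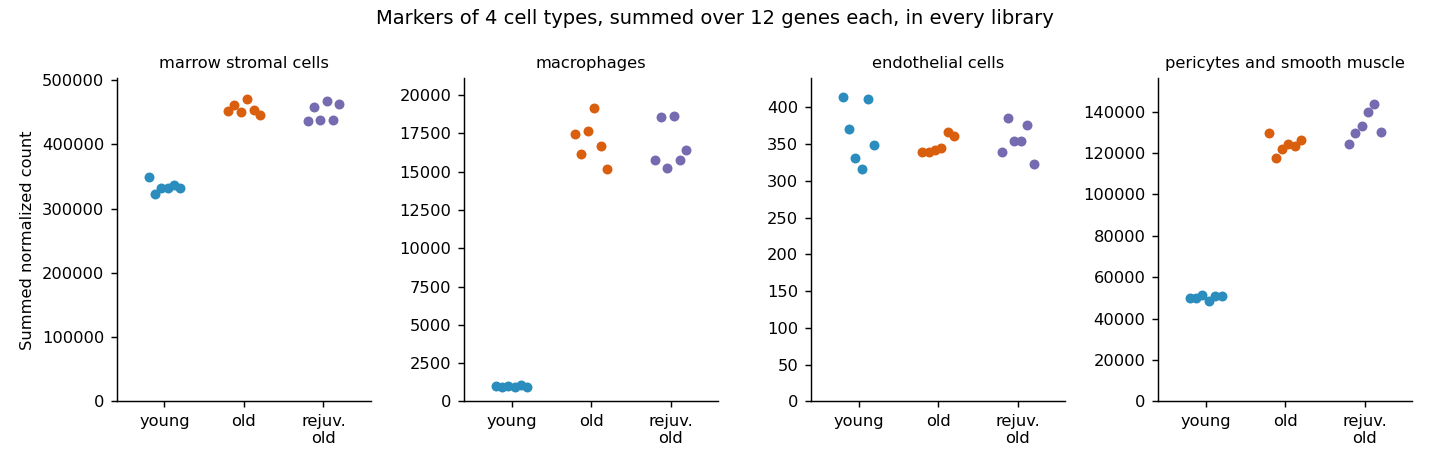
Summed normalized count of 12 markers for each of 4 cell types (vertical axis, from 0), with 1 point for each library of young, old and rejuvenated old (rejuv. old) MSCs. Macrophage sums stay at or below 1040 in young libraries and start at 15153 in the other 2 groups, while the endothelial sums overlap.

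Promoter sequences were found in RefSeq (GRCm38.p6) for 7 of the 10 genes, covering 250 bases before and 50 after the start of the transcript. The target genes Hes1, Hey1 and Heyl had none. Shown here are those of the receptors that led in young (Notch2) and in old MSCs (Notch3), and of the ligands that moved in opposite directions on co-culture (Jag1 and Dll1). Capitals mark a GC box, GGGCGG on either strand.
Notch2, chr3:98013288-98013587, plus strand: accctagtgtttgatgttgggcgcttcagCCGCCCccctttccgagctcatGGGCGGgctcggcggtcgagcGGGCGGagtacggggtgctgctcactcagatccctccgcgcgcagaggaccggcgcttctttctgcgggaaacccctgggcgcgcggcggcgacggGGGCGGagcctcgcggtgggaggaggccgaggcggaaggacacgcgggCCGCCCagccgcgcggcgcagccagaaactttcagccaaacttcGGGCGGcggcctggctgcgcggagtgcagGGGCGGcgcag
Notch3, chr17:32166841-32167140, minus strand: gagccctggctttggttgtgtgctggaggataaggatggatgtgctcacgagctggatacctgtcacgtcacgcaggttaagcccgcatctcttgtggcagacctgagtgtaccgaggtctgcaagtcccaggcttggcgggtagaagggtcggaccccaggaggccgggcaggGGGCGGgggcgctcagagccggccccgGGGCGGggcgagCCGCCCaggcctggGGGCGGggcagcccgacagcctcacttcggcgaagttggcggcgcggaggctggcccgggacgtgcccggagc
Jag1, chr2:137116471-137116770, minus strand: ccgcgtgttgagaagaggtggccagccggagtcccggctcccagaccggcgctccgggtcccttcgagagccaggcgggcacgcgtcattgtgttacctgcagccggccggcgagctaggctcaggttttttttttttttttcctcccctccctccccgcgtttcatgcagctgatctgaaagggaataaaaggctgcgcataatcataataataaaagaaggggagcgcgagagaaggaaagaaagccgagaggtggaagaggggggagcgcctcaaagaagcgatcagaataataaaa
Dll1, chr17:15376883-15377182, minus strand, the outer of its annotated starts: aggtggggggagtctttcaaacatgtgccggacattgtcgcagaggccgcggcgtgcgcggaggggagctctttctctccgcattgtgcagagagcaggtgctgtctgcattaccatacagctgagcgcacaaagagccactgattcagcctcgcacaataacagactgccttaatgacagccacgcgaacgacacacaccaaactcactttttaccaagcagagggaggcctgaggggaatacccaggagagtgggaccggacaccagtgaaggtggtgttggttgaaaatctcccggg
The window of Notch2 held 7 GC boxes and that of Notch3 held 4, while those of Jag1 and Dll1 held none. A GC box was found in 35.7% of 32851 promoter windows of this length. The letters TGGGAA, the core of the RBPJ motif, were searched on both strands and were in none of the windows of the 7 genes, against 25.6% of all windows. The target genes, without a window here, were not part of this search. G and C made up 73.0% of the Notch2 window, 70.0% of that of Notch3, 55.7% of that of Jag1 and 56.3% of that of Dll1, against a median of 52.7%.

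Notch receptors were lower in young than in old MSCs, most of all Notch3, and co-culture with young MSCs lowered Notch1, Notch2 and Notch3 by small amounts. Notch3 (chr17:32120820-32166896), the receptor known from vascular smooth muscle and pericytes, was at 313 to 427 normalized counts in young libraries (median 378), 4862 to 5837 in old libraries (median 5134) and 4038 to 4954 in rejuvenated old libraries (median 4459). Young libraries were all far below the others, while the old and rejuvenated old ranges overlapped, rejuvenated old replicate 6 lying above old replicate 2. The old mean was 13.9 times the young mean, a log2 difference of -3.80 for young against old (SE 0.06, limma adjusted p = 3.16e-24). Rejuvenated old MSCs differed from old by -0.22 on the log2 scale (SE 0.06, limma adjusted p = 0.00433).

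Notch2 (chr3:98013538-98150367), a broadly expressed receptor, had the smallest difference with age of the 4 receptors. Its level was 3096 to 3347 normalized counts in young libraries (median 3163), 4593 to 4844 in old libraries (median 4686) and 3268 to 3676 in rejuvenated old libraries (median 3579). All 6 rejuvenated old libraries lay below all 6 old ones. Only rejuvenated old replicate 5, at 3268, reached into the young range, and the others lay above every young library. The log2 difference was -0.56 for young against old (SE 0.03, limma adjusted p = 5.32e-14) and -0.41 for rejuvenated old against old (SE 0.03, limma adjusted p = 4.32e-10). Against young MSCs the rejuvenated old level was 0.14 higher on the log2 scale (SE 0.03, limma adjusted p = 0.000141), and with all libraries scaled to the same total this was 0.05 and missed the threshold (adjusted p = 0.101).

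Notch1 (chr2:26457902-26503822), a receptor known from T-cell leukaemia, was at 81.6 to 115 normalized counts in young libraries (median 95.9), 655 to 807 in old libraries (median 701) and 528 to 671 in rejuvenated old libraries (median 567). Only rejuvenated old replicate 6, at 671, reached into the old range. The old mean was 7.49 times the young mean (log2 difference -2.90, SE 0.08, limma adjusted p = 5.68e-20), and Notch1 fell by 0.32 on the log2 scale in rejuvenated old against old MSCs (SE 0.08, limma adjusted p = 0.00185). Notch4 (chr17:34564286-34588543), known mainly from endothelium, was at 26.3 to 47.9 normalized counts in young libraries (median 40.7), 159 to 203 in old libraries (median 191) and 151 to 190 in rejuvenated old libraries (median 168). It was lower in young than in old MSCs (log2 difference -2.27, SE 0.12, limma adjusted p = 4.78e-14). Old and rejuvenated old libraries overlapped, with a difference of -0.13 and a 95% interval of -0.39 to 0.13 (limma adjusted p = 0.427). Annotated genes overlap 3 of the receptors, on the opposite strand at Notch1 and Notch3 and on the same strand at Notch2, and the strand setting of the counting was not given in the sources used here.

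**Figure D2:**
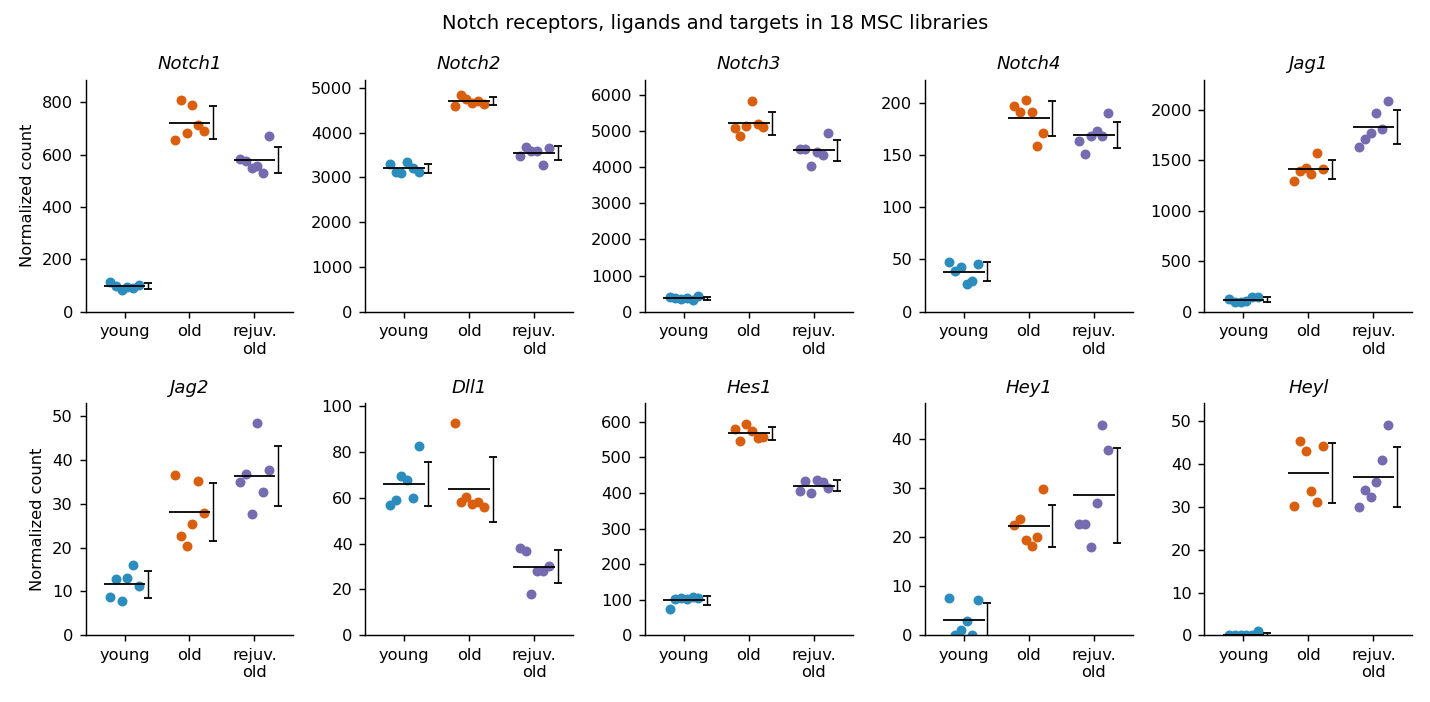
Normalized count (vertical axis, from 0, a separate scale for each gene) of the 10 Notch genes, with 1 point for each of the 6 libraries of young, old and rejuvenated old (rejuv. old) MSCs, the mean as a line and the SD as a bar, which for Hey1 and Heyl in young MSCs ends at the axis. Young libraries lie below all others for 8 genes and overlap the rejuvenated old ones for Notch2, while for Dll1 the rejuvenated old libraries are lowest, at 18.1 to 38.1.

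The makeup of the receptors differed between ages on the scale of normalized counts per kb of exons, which allows levels of different genes to be compared. Notch2 made up 80.8 to 85.2% of the summed receptor level in young libraries (median 82.9%) and Notch3 made up 10.9 to 14.5% (median 12.7%). In old libraries Notch3 led with 51.3 to 56.7% (median 54.2%), and Notch2 followed with 34.6 to 39.0% (median 37.5%). The order of these 2 receptors was thus reversed in every old library. Rejuvenated old libraries had the old order, with 54.3 to 58.0% Notch3 (median 56.9%) and 32.7 to 36.7% Notch2 (median 34.3%). Notch1 and Notch4 had median shares of 2.76% and 1.73% in young, 6.22% and 2.35% in old, and 6.16% and 2.69% in rejuvenated old libraries. The summed receptor level per kb was 354 to 383 in young, 1171 to 1285 in old and 928 to 1065 in rejuvenated old libraries, so that no ranges overlapped.

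Among the ligands, Jag1 had the largest difference between ages and rose further on co-culture, whereas Dll1 overlapped between the ages and fell in rejuvenated old MSCs. Jag1 (chr2:137081451-137116520), the Jagged ligand of vessel walls and marrow stroma, was at 92.7 to 150 normalized counts in young libraries (median 117), 1296 to 1577 in old libraries (median 1407) and 1630 to 2090 in rejuvenated old libraries (median 1795). The 3 ranges were separate, with rejuvenated old above old and old above young. The old mean was 11.8 times the young mean (log2 difference for young against old -3.57, SE 0.10, limma adjusted p = 7.6e-20). Rejuvenated old MSCs were higher than old ones by 0.37 on the log2 scale (SE 0.10, limma adjusted p = 0.00345), the only member called higher, and by 0.41 without rejuvenated old replicate 1 (adjusted p = 0.00241).

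Dll1 (chr17:15367354-15376932), a Delta ligand, was at 56.6 to 82.4 normalized counts in young libraries (median 63.8), 55.8 to 92.5 in old libraries (median 58.1) and 18.1 to 38.1 in rejuvenated old libraries (median 29.1). Young and old libraries overlapped over most of their ranges and all rejuvenated old libraries lay below both. The log2 difference for young against old was 0.06, with a 95% interval of -0.29 to 0.40 (limma adjusted p = 0.749). Rejuvenated old MSCs fell by 1.08 on the log2 scale against old (SE 0.17, limma adjusted p = 1.69e-05) and by 1.14 against young (SE 0.17, limma adjusted p = 1.17e-06). Without rejuvenated old replicate 1 these differences were -1.16 and -1.21. Dll1 has a long noncoding RNA on the opposite strand, A930024N18Rik, with the same limit as for the receptors.

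Jag2 (chr12:112907803-112929812), the second Jagged ligand, was sparse at 7.82 to 16.0 normalized counts in young libraries (median 12.1), 20.5 to 36.6 in old libraries (median 26.7) and 27.6 to 48.3 in rejuvenated old libraries (median 35.9). It was lower in all young libraries than in any old one (log2 difference -1.20, SE 0.19, limma adjusted p = 5.01e-06). Rejuvenated old and old libraries overlapped, with a difference of 0.37 and a 95% interval of -0.03 to 0.78 (limma adjusted p = 0.129). Per kb of exons, Jag1 made up a median of 49.7% of the summed level of the 3 ligands in young libraries, against 92.3% in old and 95.6% in rejuvenated old ones. The median share of Dll1 was 44.7% in young libraries, against 6.04% in old and 2.24% in rejuvenated old ones.

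**Figure D3:**
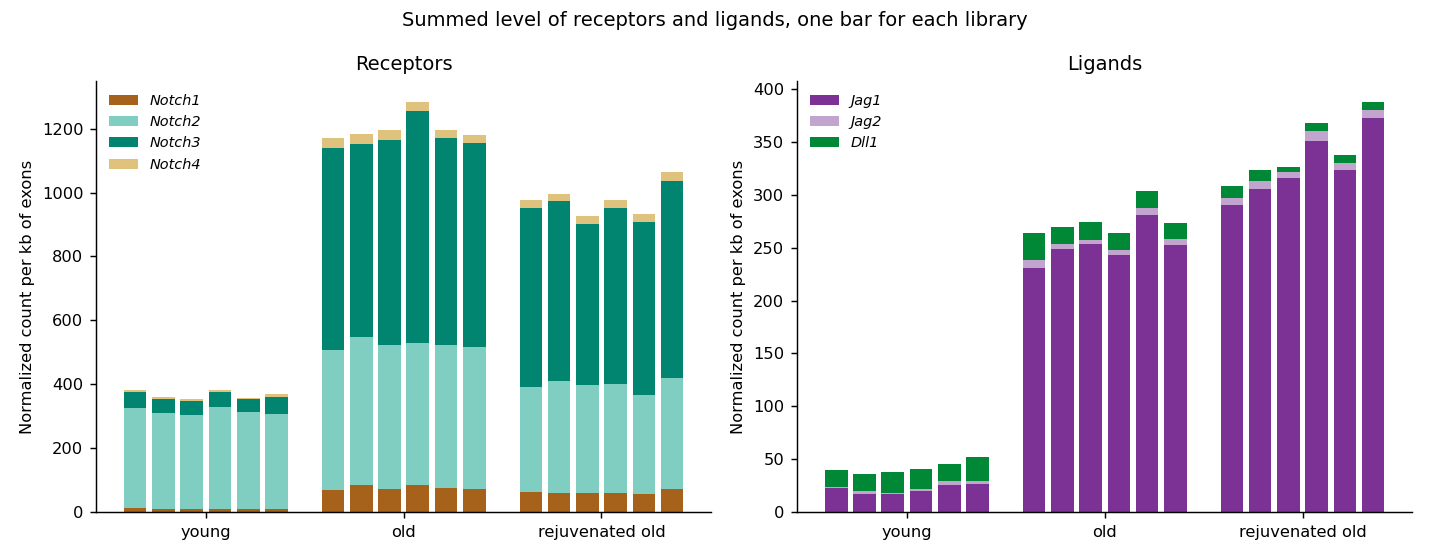
Summed normalized count per kb of exons (vertical axis, from 0) of the 4 receptors (left) and the 3 ligands (right), with 1 stacked bar for each library in replicate order within young, old and rejuvenated old MSCs. Notch2 fills most of each young receptor bar and Notch3 the largest part of every old and rejuvenated old one, while Jag1 fills at least 87.5% of every old and rejuvenated old ligand bar.

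The targets were lower in young MSCs, and of the 3 only Hes1 passed the test between rejuvenated old and old MSCs. Hes1 (chr16:30065357-30067796), the general HES repressor downstream of Notch and other pathways, was at 74.0 to 107 normalized counts in young libraries (median 103), 546 to 595 in old libraries (median 566) and 400 to 436 in rejuvenated old libraries (median 423). None of the 3 ranges overlapped, and rejuvenated old libraries lay between the others, nearer to the old ones. The old mean was 5.73 times the young mean (log2 difference -2.52, SE 0.07, limma adjusted p = 2.64e-19). Hes1 fell by 0.43 on the log2 scale in rejuvenated old against old MSCs (SE 0.07, limma adjusted p = 5.2e-05).

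Hey1 (chr3:8663359-8667038) and Heyl (chr4:123233556-123249870), HEY repressors known from the vasculature, were sparse. Hey1 was at 0 to 7.62 normalized counts in young libraries (median 2.08), 18.2 to 29.8 in old libraries (median 21.3) and 18.1 to 42.8 in rejuvenated old libraries (median 24.8). It was lower in young than in old MSCs (log2 difference -2.98, SE 0.44, limma adjusted p = 1.61e-06), and rejuvenated old and old libraries overlapped, with a difference of 0.30 and a 95% interval of -0.62 to 1.22 (limma adjusted p = 0.631). Heyl had a single read in 1 young library and none in the other 5, and was at 30.1 to 45.3 normalized counts in old libraries (median 38.4) and 29.9 to 49.1 in rejuvenated old libraries (median 34.9). Set against a floor of 3 reads per young library, Heyl was at least 12.02-fold higher in old and at least 11.7-fold higher in rejuvenated old MSCs (limma adjusted p = 6.01e-16 and 7.12e-16). Between rejuvenated old and old MSCs its difference was -0.03, with a 95% interval of -0.49 to 0.42 (limma adjusted p = 0.919).

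In all, 9 of the 10 genes were lower in young than in old MSCs, none was higher and Dll1 did not pass the test. Of all 14353 genes tested, 85.7% passed in this comparison, 41.6% higher and 44.1% lower, so that a count of 9 of 10 is near the background, while the direction was shared. The members' median log2 difference was -2.71, against -0.02 for all genes. In rejuvenated old against old MSCs 6 of the 10 passed, where 41.6% of all genes did. Of these, Jag1 was higher (background 21.0%) and Notch1, Notch2, Notch3, Dll1 and Hes1 were lower (background 20.6%), with a median over the members of -0.18 against 0.01 for all genes. The young and old groups did not overlap for 9 genes, all lower in young MSCs, and neither did they for 73.9% of all genes tested, 35.7% higher and 38.2% lower. Between rejuvenated old and old MSCs the groups did not overlap for 4 of the 10, Jag1 (higher) and Notch2, Dll1 and Hes1 (lower), beside 22.0% of all genes, 10.4% higher and 11.6% lower. Each of these 6 calls also passed without rejuvenated old replicate 1. Summed macrophage markers overlapped between old and rejuvenated old libraries, and 10 of the 12 did not pass the test there, while Itgam was higher and Cd68 lower. Of the 9 pericyte and smooth muscle markers tested, Tagln, Cnn1 and Ndufa4l2 were higher in rejuvenated old MSCs, none was lower and 6 did not pass. Means of Ndufa4l2 were 3035 in rejuvenated old and 160 in old MSCs, and 2254 in young MSCs, where the sum of these markers was lowest.

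**Figure D4:**
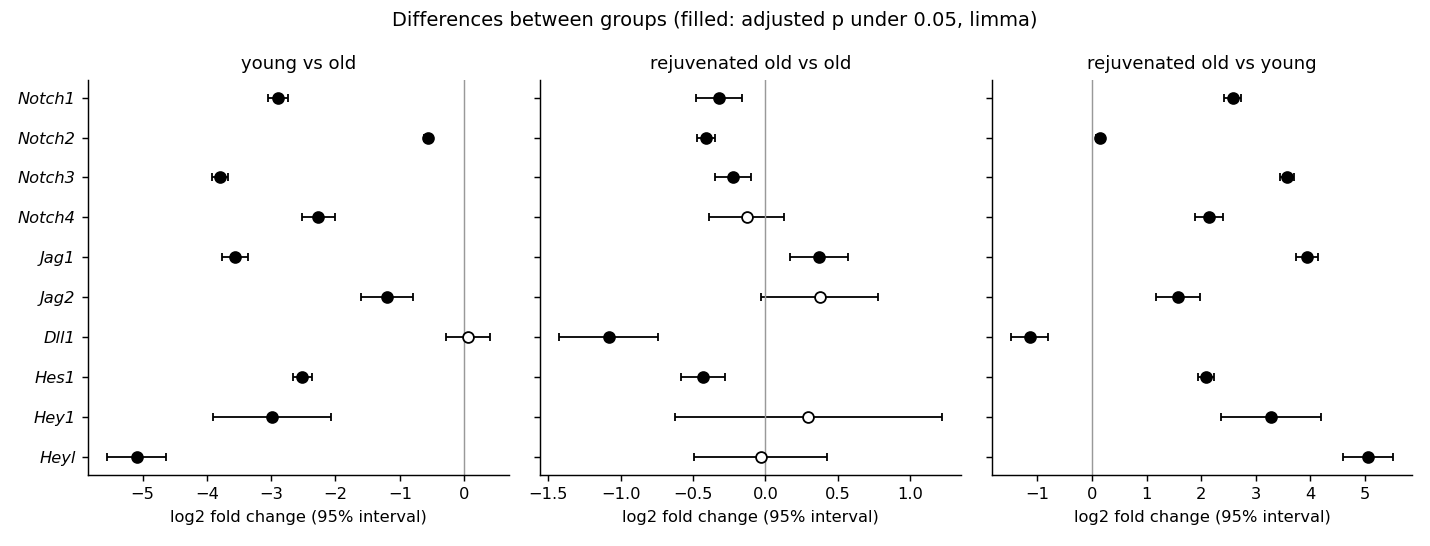
Log2 fold change (horizontal axes, a separate scale for each panel) of the 10 Notch genes for young against old, rejuvenated old against old and rejuvenated old against young MSCs, with 95% intervals and filled points where the limma adjusted p was under 0.05. Dll1 is the only open point on the left, and in the middle panel Jag1 lies above 0 at 0.37 and Dll1 lowest at -1.08.

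The comparisons share libraries, and the third is given for the levels that co-culture left. Rejuvenated old MSCs differed from young ones in all 10 genes, 9 higher and Dll1 lower, where 85.6% of all genes passed, 44.1% higher and 41.5% lower. The log2 differences were 3.94 for Jag1, 3.57 for Notch3, 2.57 for Notch1, 2.13 for Notch4 and 2.08 for Hes1 (limma adjusted p from 1.01e-23 for Notch3 to 1.52e-13 for Notch4). Jag2 was higher by 1.58 and Hey1 by 3.28. The members' median was 2.35, against 0.03 for all genes, and only Notch2 overlapped between rejuvenated old and young libraries. The groups did not overlap for 8 genes that were higher and for Dll1, which was lower, beside 70.5% of all genes, 36.5% higher and 34.0% lower.

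Ordered by level per kb of exons, Notch2 led in young MSCs with a median of 301 normalized counts per kb, apart from all others. Hes1 (70.2) and Notch3 (47.2) followed with overlapping ranges, then Jag1 (20.9) and Dll1 (17.8), which also overlapped, Notch1 (10.1), Notch4 (6.17), Jag2 (2.38) and Hey1 (0.857), with Heyl at a median of 0. The ranges of Jag2, Hey1 and Heyl overlapped from each to the next. In old MSCs the order was Notch3 (641), Notch2 (446), Hes1 (385), Jag1 (251) and Notch1 (73.9), each separate from the next. Notch4 (29.0) and Dll1 (16.2) overlapped there, and so did Hey1 (8.80), Heyl (8.45) and Jag2 (5.22) with their neighbours in that order. In rejuvenated old MSCs Notch3 again led alone at 556, and Notch2 (341), Jag1 (320) and Hes1 (288) overlapped each with the next. Below them came Notch1 (59.8) and Notch4 (25.5), each separate, and then Hey1 (10.3), Dll1 (8.13), Heyl (7.68) and Jag2 (7.03), which overlapped in turn.

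The other genes of the pathway, a list of 60 written by role, were examined in the same fit, and 50 of them passed the filter on low values. Between young and old MSCs 22 were higher, 23 lower and 5 did not pass. This is near the background of 41.6% higher and 44.1% lower, and the median was -0.03, against -0.02 for all genes. Both further ligands tested were higher in young MSCs. Dlk1, a noncanonical ligand known as an inhibitor of adipocyte differentiation, was at 11489 to 12726 normalized counts in young and 6.73 to 16.1 in old libraries (means 1066-fold apart, SE of the log2 difference 0.45, limma adjusted p = 1.11e-15), and Dlk2 was higher by 2.97. Neurl1a, a ubiquitin ligase of the Neuralized family that acts on ligands, was at 488 to 544 normalized counts in young and 9.998 to 21.2 in old libraries, with a log2 difference of 4.93. Genes lower in young MSCs were led by Lfng (-1.82), the Fringe glycosyltransferase that tunes which ligand a receptor answers, Hdac1 (-1.55), a histone deacetylase of corepressor complexes, and Hes6 (-1.38), a HES family member known to oppose HES1.

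In rejuvenated old against old MSCs 8 of the 50 were higher, 15 lower and 27 did not pass, a share of 46.0% beside the 41.6% of all genes, with a median of -0.02. Of 10 genes of receptor cleavage 6 were lower and none higher. Adam10, the protease of the first ligand-dependent cut, was at 886 to 1101 normalized counts in old and 366 to 703 in rejuvenated old libraries, without overlap (log2 difference -0.85, SE 0.11, limma adjusted p = 1.57e-06). Aph1b, a subunit of γ-secretase, fell by 0.52 (limma adjusted p = 0.000124). Of 9 genes of the nuclear complex 5 were higher and 2 lower. Rbpj, which encodes the DNA-binding partner of the cleaved receptor, was at 2241 to 2450 normalized counts in old and 3707 to 3930 in rejuvenated old libraries, and 2047 to 2311 in young ones. It was higher by 0.70 in rejuvenated old than in old MSCs (SE 0.03, limma adjusted p = 8.48e-14), whereas the coactivator gene Maml3 fell by 0.52 (limma adjusted p = 2.42e-05).

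Of 12 corepressor genes 6 were lower and none higher on co-culture, where 20.6% of all genes were lower and 21.0% higher, the background for each of these roles. None of the 4 genes of ligand activation passed, 1 of 4 of receptor glycosylation was higher, and of 8 genes of receptor turnover 1 was higher and 1 lower. The higher one was Dtx4, a Deltex ubiquitin ligase, with 0.27 (limma adjusted p = 0.00404) and overlapping groups. Dlk1 was higher by 1.56 (SE 0.45, limma adjusted p = 0.00745), and by 0.94 without rejuvenated old replicate 1, the library apart for it (adjusted p = 7.33e-05). Against young MSCs, rejuvenated old MSCs had 20 of the 50 genes higher, 24 lower and 6 that did not pass, near the background of 44.1% higher and 41.5% lower. The largest differences there were higher Lfng (1.66), Hdac1 (1.38) and Hes6 (1.37) and lower Dlk1 (-8.44, and -9.06 without rejuvenated old replicate 1), Neurl1a (-4.86) and Dlk2 (-2.64). The 10 genes below the filter included the ligands Dll3 and Dll4, with at most 3 and 10 reads in any library, and the target genes Hes5, Nrarp and Hey2, with at most 1, 2 and 17 reads.

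**Figure D5:**
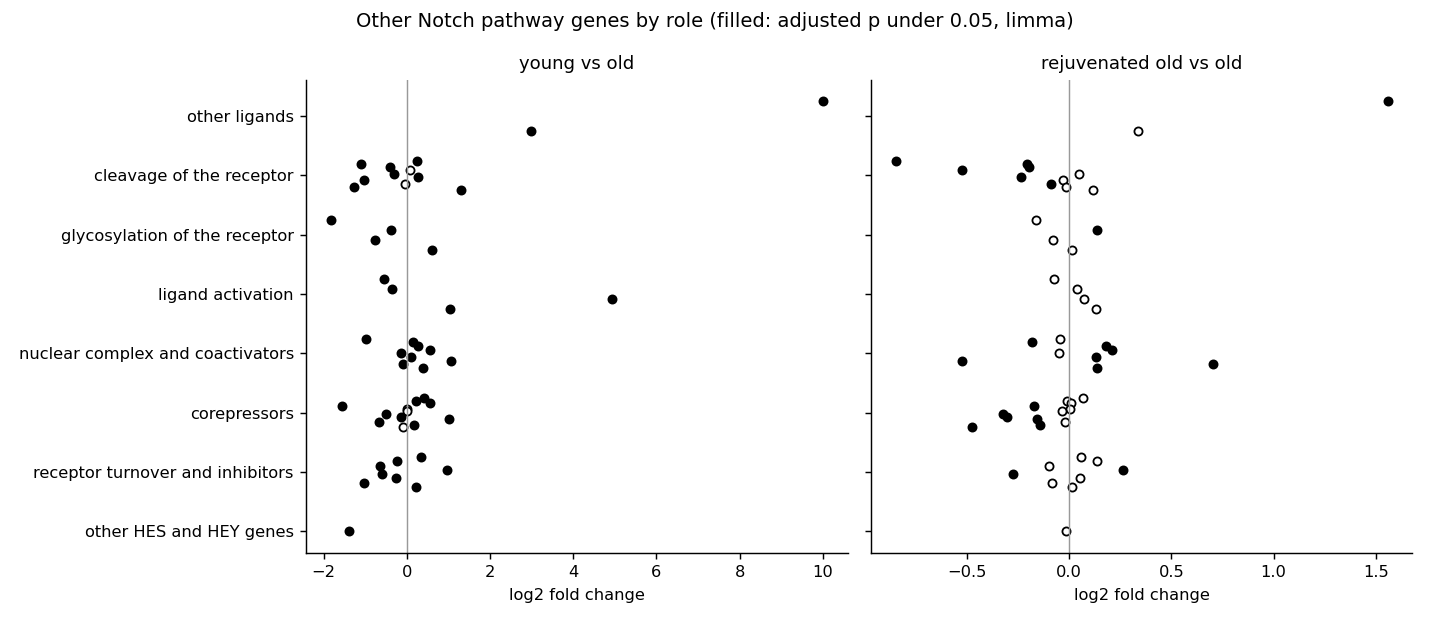
Log2 fold change (horizontal axes, a separate scale for each panel) of the 50 other Notch pathway genes tested, by role (vertical axis), for young against old (left) and rejuvenated old against old MSCs (right), filled where the limma adjusted p was under 0.05. On the right, filled points of receptor cleavage and of corepressors lie below 0, and the rightmost points are Dlk1 at 1.56 and Rbpj at 0.70.

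Genes with the most similar pattern were found by Pearson's r of log2(value + 1) over the 18 libraries, as a description, since the 3 groups alone give high values. Nearest to Notch1 were Pcnx and Esyt1 (r = 0.998 for both), to Notch2 Il17rd (0.988) and Gclc (0.987), to Notch3 Cdc42bpg and Svep1 (0.999 for both), and to Notch4 Nckap1l (0.992) and Ago4 (0.991). Nckap1l, a gene of blood cells, was at a mean of 1.75 normalized counts in young MSCs, against 344 in old ones and 293 after co-culture. Jag1 was nearest to Pde2a and Ece1 (0.998 for both), Jag2 to Arrb1 (0.955) and Dubr (0.947), and Dll1 to Egr3 (0.921) and Tmem65 (0.916). Egr3, an immediate early transcription factor, had means of 63.3 normalized counts in young MSCs, 61.4 in old ones and 23.0 after co-culture, beside 65.8, 63.7 and 29.9 for Dll1. Hes1 was nearest to Mdga1 (0.997) and Eda2r (0.996), Hey1 to Ccdc8 (0.948) and Foxp2 (0.947), and Heyl to Themis2 and Ptprd (0.997 for both).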

How the data were processed

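RNA from 18 MSC cultures was sequenced from TruSeq Stranded mRNA libraries. On Galaxy, the authors used HISAT2 for alignment to mm10, StringTie and featureCounts for assembly and counting, and DESeq2 for normalization of the counts. Versions, annotation, strand setting and filters were not given in the sources used here. The deposited values are a signal, the reads of a gene divided by 1 size factor per library, with replicates not pooled. Whole reads were recovered from the steps between values, and 100.0% of values came within 0.01 of a whole read. Libraries held 22936251 to 29559194 reads.

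Groups were taken from the sample labels. log2(value + 1) was fitted with limma 3.58.1 (R 4.3.3), all 18 libraries in 1 fit with a trended prior variance, over the 14353 genes that averaged 10 or more, and p was adjusted by Benjamini-Hochberg over all of them, with calls at 0.05. Fold changes are on this scale and understate those of sparse genes. DESeq2 1.42.0 and edgeR 4.0.16 were run on the recovered reads as alternatives. All 3 tests were checked on simulated data in which few genes were changed, only in the rejuvenated old libraries. This check does not cover comparisons in which most genes differ, such as young against old MSCs. Levels per kb used merged exons of protein-coding transcripts of GENCODE M21, positions and promoters came from RefSeq (GRCm38.p6, the build of mm10), and tables and figures were made with Python 3.11.15, numpy 2.4.6, pandas 2.3.3 and matplotlib 3.10.9. No pair of replicates was alike within counting noise, so none was treated as a duplicate, a check that cannot tell separate animals from repeat preparations.

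The members and lists were chosen with earlier results of these data known. The text names all 10 members, the 3 largest called rises and falls of the pathway list in each comparison, the 2 genes most like each member (predicted and unnamed genes passed over), and marker genes that lead a list or lie at the floor. The sex-linked genes, Thy1, single markers that moved, other cases of a single library or a few genes, and Dll3, Dll4, Hes5, Nrarp and Hey2 were named after their values were seen. The alternatives were a pseudocount of 0.5 or 10, no filter on low values or one at 50, scaling to the same total or 75th percentile, fits of 2 groups, the replicate number as a block, a threshold of 0.01, DESeq2, edgeR, and each library left out in turn.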

Additional observations from a re-analysis of the deposited data

Results flagged for a closer look

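In 4 of the 30 sets of 6 values (10 genes in 3 groups), a single library lay far from the others by Dixon's test, which chance alone would flag in about 1 in 20 sets. Notch3 was at 5837 normalized counts in old replicate 4, with the other old libraries at 4862 to 5197. Dll1 was at 92.5 in old replicate 1, with the others at 55.8 to 60.3. Hes1 was at 74.0 in young replicate 1, with the others at 102 to 107. Heyl was at 1.03 in young replicate 6, a single read, and at 0 in the other young libraries.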

How the results depend on the processing

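The number of the 10 Notch genes called stayed within 1.5 times its value in each of the 3 comparisons under the 29 alternatives, and so did that of the 50 other pathway genes tested. With a mean of at least 50 required, Jag2, Hey1 and Heyl were not tested and 6 members were called between young and old MSCs. Scaling to the same total left 9 members called between rejuvenated old and young MSCs, Notch2 being lost (0.05, adjusted p = 0.101). Of 651 values of single genes, 644 kept direction and side of the threshold. Leaving out libraries turned the sign of 2 differences that missed the threshold: that of Dll1 between young and old MSCs ran from -0.0092 (without young replicate 6) to 0.17, and that of Heyl between rejuvenated old and old MSCs from -0.12 to 0.023. For rejuvenated old against old MSCs, the differences of the 6 called genes ran from 0.33 to 0.41 for Jag1 and from -1.16 to -0.95 for Dll1 over the libraries left out.

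Replicate numbers did not pair the libraries, since same-numbered libraries of different groups had correlations between -0.152 and 0.0736 in their deviations from group means. With the replicate number as a block, 9, 6 and 10 members were called for young against old, rejuvenated old against old and rejuvenated old against young, and 45, 24 and 44 of the pathway list. Jag2, Hey1 and Heyl rested on few reads, 18 to 52 in each old and rejuvenated old library, and the intervals of their differences between these groups are wide.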
